A study of Mus musculus with 12 samples.

Results

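Eph receptors and their ligands, the ephrins, were examined in Purkinje cells (PCs), the conducting myocytes of the ventricle, and in working ventricular myocytes (VMs) of *Ncam-1* wild-type (WT) and knockout (KO) mice. The set was 10 genes chosen by name, namely *Ephb1*, *Ephb3*, *Ephb4*, *Epha3*, *Epha4*, *Epha7*, *Efna1*, *Efna5*, *Efnb1* and *Efnb2*, out of the 22 Eph and ephrin genes and 48526 genes counted. The choice was made with earlier results of these data known. Counts and medians of members beside those of all genes are therefore descriptions and not independent support. All animals were adult male mice that carried the *Cntn2*-EGFP reporter, a bacterial artificial chromosome transgene that labels PCs, and the KO animals also lacked *Ncam-1* in every cell from conception. The reporter line was kept on CD1 and the *Ncam-1* line on C57BL/6 before they were crossed, so background was mixed in these animals. Hearts were digested, myocytes were marked through their mitochondria with the dye TMRM (50 nM, 15 min), and a microfluidic sorter split them into RFP+GFP+ cells (PCs) and RFP+GFP- cells (VMs). Whether left or right ventricular PCs were sampled was not distinguished. Total RNA of the sorted cells was amplified and sequenced in 12 libraries, with 3 replicates each of WT PC, KO PC, WT VM and KO VM. Whether the replicates were separate hearts is not given, so p-values measure only the spread between these libraries.

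Eph receptors are receptor tyrosine kinases that bind ephrins on the surface of a neighbouring cell, so that the receptor-bearing cell and the ephrin-bearing cell can both be signalled to. Ephrins of class A are held in the membrane by a lipid anchor and those of class B span it, and each class binds mainly the Eph receptors of the same letter, with EphA4 binding both. The pathway is known for repelling growing axons, for sorting cells at tissue boundaries and, through ephrin-B2 and EphB4, for separating arteries from veins.

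Between 13883427 and 42505705 read pairs per library fell on genes, of which 1532393 to 6761356 lay outside the mitochondrial genome. Counts below are normalized counts, the raw count scaled by TMM to a library of average size. In the PC libraries 3 raw counts, taken as the floor of detection, were worth 1.31 to 5.85 normalized counts, and in the VM libraries 2.22 to 4.24. This floor and the intervals given for counts cover counting error only. Replicate 2 of WT PC stood apart, since 63.9% of its read pairs had no alignment and the share was 18.8% to 24.7% elsewhere. Several results that rest on it are also given without it. *Cntn2*, the gene of the sorting reporter, was 7.06 higher on the log2 scale in WT PC than in WT VM (SE 0.473, adjusted p = 0.00124, edgeR quasi-likelihood test, Benjamini-Hochberg). All 8 cardiomyocyte markers had counts in all 12 libraries. The 8 PC markers summed to 602 to 1349 normalized counts in WT PC, 236 to 1013 in KO PC, 57.4 to 90.0 in WT VM and 112 to 153 in KO VM.

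The 10 genes lay on 9 chromosomes of GRCm38. *Ephb1* (ENSMUSG00000032537) spans 101922128 to 102354693 of chromosome 9 on the minus strand, *Ephb3* (ENSMUSG00000005958) spans 21204755 to 21223305 of chromosome 16 on the plus strand, and *Epha4* (ENSMUSG00000026235) spans 77367185 to 77515088 of chromosome 1 on the minus strand. Sequence just upstream of these 3 genes is shown because *Ephb1* and *Ephb3* were the members with the largest PC to VM differences in WT hearts, while *Epha4* was the most abundant member and differed little. Each run ends at the base before the start of the gene and reads 5′ to 3′ along the gene's own strand, from RefSeq on GRCm38.p6. All 10 members had such an upstream window of 250 bases. For *Ephb3* the 40 bases nearest the RefSeq start are left out, because GENCODE places them inside the transcript, and 210 bases are shown. The capitals mark a T-box half-site.
Ephb1, chr9:102354694-102354943, minus strand: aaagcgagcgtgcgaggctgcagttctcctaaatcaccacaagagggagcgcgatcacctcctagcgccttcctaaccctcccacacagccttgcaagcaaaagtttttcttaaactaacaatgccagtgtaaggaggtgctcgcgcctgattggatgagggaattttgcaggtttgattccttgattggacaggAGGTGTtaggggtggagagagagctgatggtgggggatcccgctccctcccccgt
Ephb3, chr16:21204545-21204754, plus strand: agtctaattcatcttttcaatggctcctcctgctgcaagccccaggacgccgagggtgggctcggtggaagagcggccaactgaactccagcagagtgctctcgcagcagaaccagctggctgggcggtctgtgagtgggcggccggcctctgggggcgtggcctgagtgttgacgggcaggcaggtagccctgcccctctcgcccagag
Epha4, chr1:77515089-77515338, minus strand: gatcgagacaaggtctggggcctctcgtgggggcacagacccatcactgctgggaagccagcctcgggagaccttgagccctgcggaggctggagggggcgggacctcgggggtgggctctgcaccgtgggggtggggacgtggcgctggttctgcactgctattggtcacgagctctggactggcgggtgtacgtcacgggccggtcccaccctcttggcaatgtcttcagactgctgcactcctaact

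Motifs of 3 kinds were searched on both strands of the full 250-base windows, without overlap between them: AGGTGT, the half-site bound by T-box factors, AAGTG, the core bound by NKX2-5, and CCGGAA, the core of ETS factors with its flank. The *Ephb1* window held AGGTGT once, 55 bases before the start. Of 32851 windows of the same length across all genes, 11.8% held it. The *Ephb3* window held AAGTG once, 13 bases before the RefSeq start and so within the stretch not shown, as did 40.7% of all windows. The *Epha4* window held none of the 3 motifs, and CCGGAA, present in 12.03% of all windows, was in none of the 3 members shown. The GC content was 54.0% for *Ephb1*, 65.6% for *Ephb3* and 66.0% for *Epha4*, beside a median of 52.4% over all windows. These are matches of letters and were not measured as bound.

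Per kilobase of exon, the scale on which genes can be compared, *Epha4* had the highest level of the family, a mean of 53.8 normalized counts per kilobase over the 12 libraries. It was followed by *Efnb3*, which is not among the 10, at 31.2, and by *Efna5* at 13.9. The next 4 members lay close together, namely *Efna1* at 6.94, *Epha7* at 6.61, *Ephb3* at 5.97 and *Ephb4* at 5.79. *Ephb1* followed at 3.79, *Efnb2* at 3.36 and *Efnb1* at 1.64, while *Epha3* was at 0.0303. In WT VM the order was *Epha4* at 48.2 ± 10.0 (SD, n = 3), *Efna5* at 15.2 ± 3.46, *Efna1* at 6.99 ± 2.67, *Epha7* at 4.73 ± 1.47, *Ephb4* at 3.45 ± 1.22, *Ephb3* at 2.52 ± 0.477, *Efnb2* at 2.05 ± 1.06, *Efnb1* at 1.30 ± 0.361 and *Ephb1* at 0.240 ± 0.0944. There *Epha4* and *Efna5* stood clear of their neighbours by more than the SDs, as did *Ephb1* at the low end, and the members between them did not. In WT PC *Ephb3* came second among the members at 14.9 ± 13.4 (SD, n = 3) and *Ephb1* next at 11.4 ± 5.05, ahead of *Ephb4* at 9.55 ± 7.52 and *Efna5* at 7.96 ± 5.28. Below *Epha4*, at 46.0 ± 18.0 in WT PC, no neighbouring pair in that order differed by more than its SDs. *Epha3*, a class A receptor, had 3 raw counts in all 12 libraries together, no more than 1 in any library, and none in PC, so it was not tested.

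**Figure D1:**
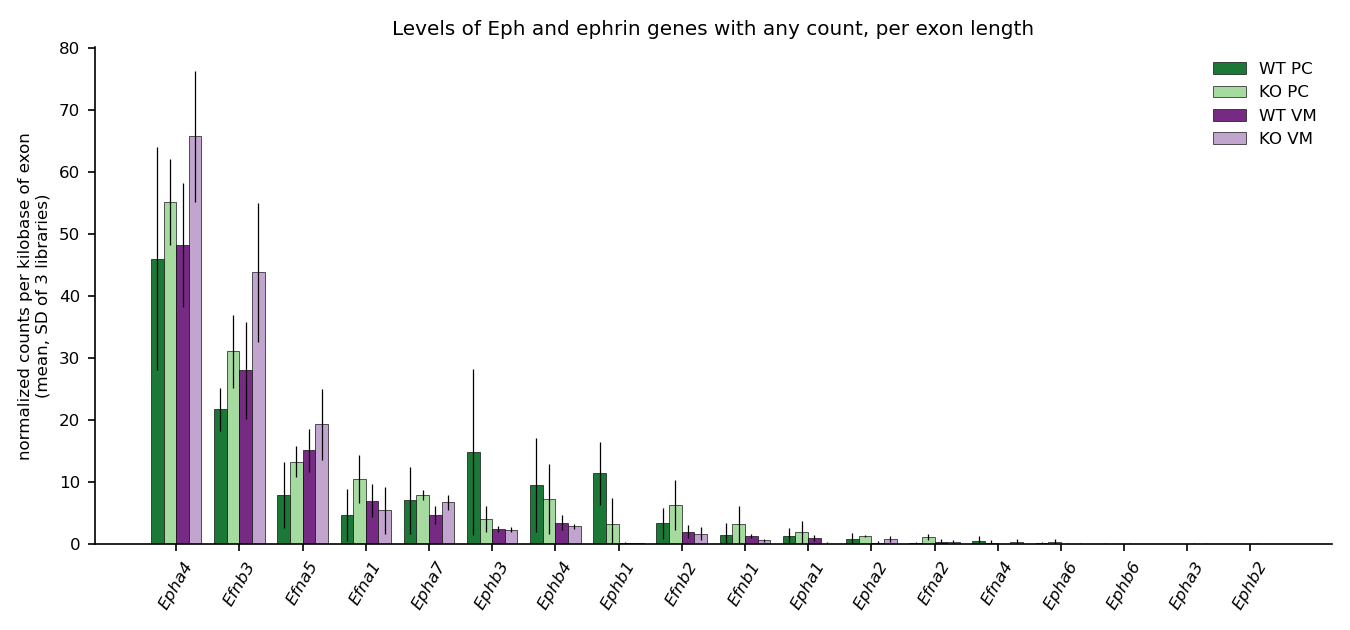
Mean level of each Eph and ephrin gene with any count, in normalized counts per kilobase of exon (y axis, linear, starting at 0), for WT PC, KO PC, WT VM and KO VM. Error bars are the SD of 3 libraries, cut at 0, and *Epha4* is the tallest gene in every group, from 46.0 in WT PC to 65.8 in KO VM.

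The other 12 genes of the family were mostly at or near the floor. *Epha5*, *Epha8*, *Epha10* and *Efna3* had no count in any library. *Efna2*, *Efna4*, *Epha6*, *Ephb6* and *Ephb2* had 14, 7, 14, 2 and 5 raw counts in all, and *Epha1* and *Epha2* had 63 and 55. *Efnb3*, a class B ephrin, was the exception, with 61.0 to 165 normalized counts per library. Its log2 fold change between PC and VM was -0.41 (SE 0.347) in WT hearts and -0.48 (SE 0.245) in KO hearts. Over both genotypes it was -0.44 (SE 0.209, unadjusted p = 0.0548, edgeR quasi-likelihood test).

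The difference between PC and VM was asked first in WT hearts. A gene was tested when its mean normalized count over the libraries compared was above 5, and 9 of the 10 members were. The members that reached an unadjusted p under 0.05 were *Ephb1* and *Ephb3*, both higher in PC, so 2 of 9, while 6.36% of all 11822 genes tested did so. *Ephb1* passed the limit for testing only through WT PC, with a mean of 80.2 there and 1.68 in WT VM. At that VM level a gene lower in PC would not have been tested. After adjustment 1 member remained, *Ephb1*, beside 0.110% of all genes. The median log2 fold change of the 9 members was 0.58, and that of all genes was -0.00357.

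*Ephb1*, a class B receptor, was close to absent from VM. Its normalized count was 41.0, 89.7 and 110 in WT PC 1, 2 and 3, from 94, 46 and 190 raw counts. In WT VM 1, 2 and 3 it was 1.88, 0.941 and 2.22, from 2, 1 and 3 raw counts. All WT PC libraries therefore lay above all WT VM libraries, and every VM library was at or under the floor. The ratio of the pooled counts, scaled for library size, was 42.2, with a 95% counting interval of 19.2 to 116. The fitted log2 fold change was 5.44 (SE 0.639, adjusted p = 0.0295, edgeR quasi-likelihood test, Benjamini-Hochberg), the fifth smallest p-value of all genes, and depends on the prior count because VM was at the floor. The adjusted p ran from 5.66e-11 to 0.339 over the 14 alternatives and was under 0.05 in 9 of them. Of the fits that left out 1 library, it was above 0.05 without WT PC replicate 3 (0.156) or WT VM replicate 1 (0.185), 2 (0.339) or 3 (0.331). The direction and an unadjusted p under 0.05 held in all 14 alternatives. A long non-coding gene, Gm26846, shares 152 of the 7002 exon bases of *Ephb1* on the opposite strand, and the strand setting of the counting is not given in the sources used here.

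*Ephb3*, another class B receptor, was present in VM and higher in PC. Its normalized count was 28.8, 199 and 68.8 in WT PC 1, 2 and 3 and 17.8, 13.2 and 19.2 in WT VM. The groups did not overlap, but WT PC 2, the library that stood apart, held by far the highest value. The log2 fold change was 2.47 (SE 0.672, unadjusted p = 0.00499, adjusted p = 0.537, edgeR quasi-likelihood test, Benjamini-Hochberg). Without WT PC replicate 2 it was 1.51, with an unadjusted p of 0.00345. With quality weights in limma voom it was 1.55.

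The other tested members did not reach the threshold in WT hearts. *Ephb4*, the receptor of ephrin-B2 known from veins, was at 17.9, 83.9 and 31.2 in WT PC and at 22.5, 12.2 and 13.3 in WT VM, a log2 fold change of 1.38 (SE 0.642, unadjusted p = 0.0604). The highest of these values again came from WT PC 2, and the groups overlapped. Without WT PC replicate 2 the log2 fold change of *Ephb4* was 0.60. *Epha4*, which binds both classes of ephrin, was at 469, 439 and 205 in WT PC and at 440, 430 and 295 in WT VM, with a log2 fold change of -0.10 (SE 0.329). Its approximate 95% interval, -0.75 to 0.54, leaves out a change of 2-fold in either direction. *Epha7*, another class A receptor, was at 47.9, 31.2 and 131 in WT PC and at 30.0, 55.5 and 54.7 in WT VM, and WT PC 3 alone lay above the VM range while the other two lay within it. Among the ligands, *Efna5* was lower in every WT PC library (47.5, 7.80 and 41.0) than in every WT VM library (48.8, 76.2 and 58.4), by -0.89 on the log2 scale (SE 0.570, unadjusted p = 0.154). Without WT PC replicate 2 the *Efna5* value was -0.48. *Efna1*, a class A ephrin, had log2 fold change -0.72 (SE 0.811), *Efnb1* 0.24 (SE 1.10) and *Efnb2* 0.74 (SE 0.778), with SEs as large as the differences. Leaving out WT PC replicate 2 brought the members under an unadjusted p of 0.05 from 2 to 5, with *Epha7* at 0.90, *Efna1* at -1.53 and *Efnb2* at 1.18 joining *Ephb1* and *Ephb3*. The count of all genes under that threshold rose as well in this fit, from 752 to 1264.

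**Figure D2:**
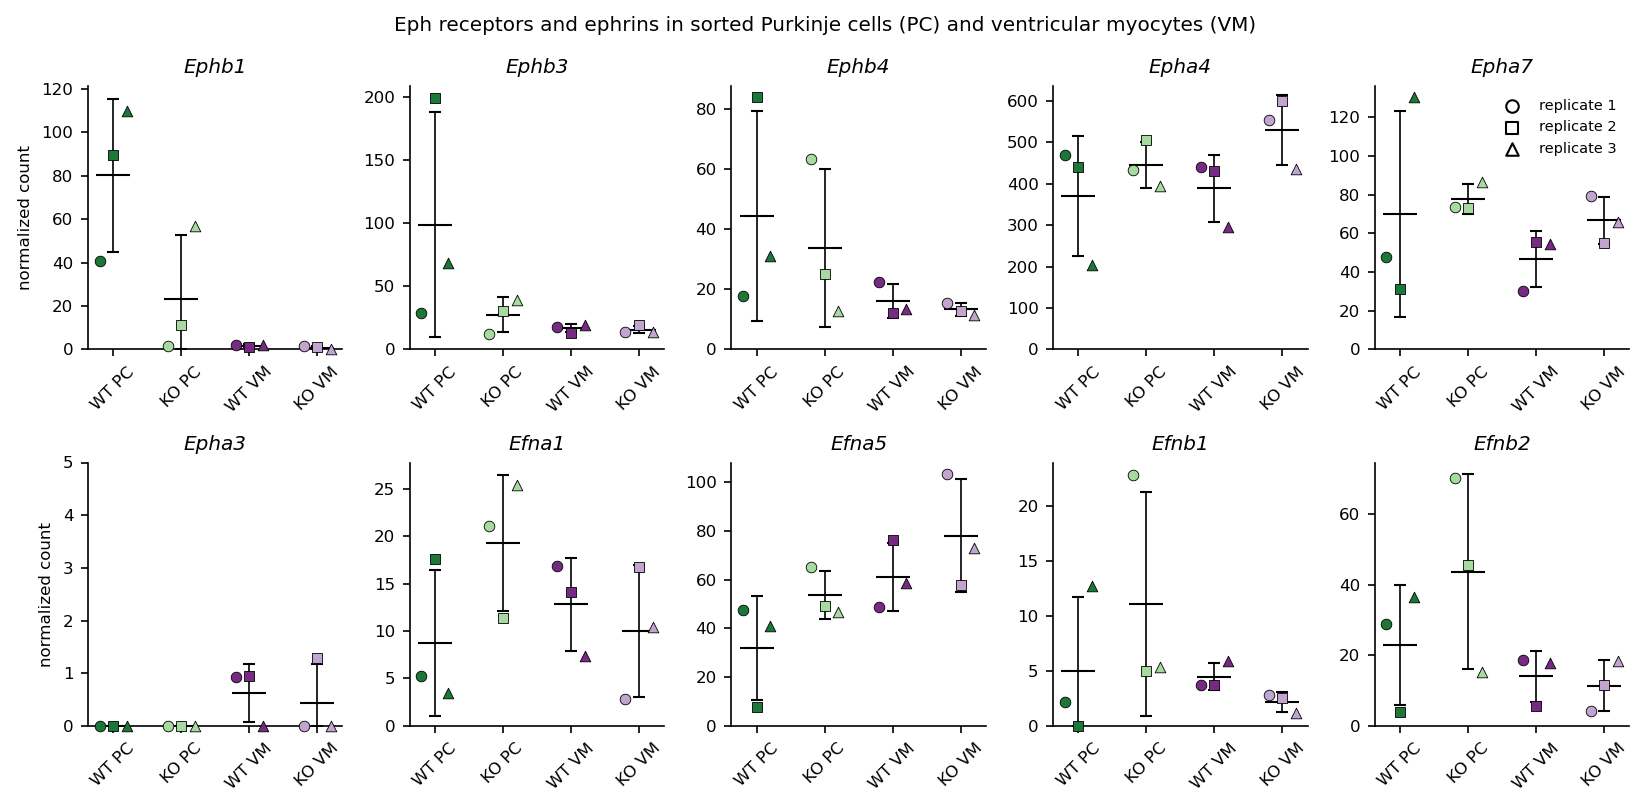
Normalized count of each of the 10 genes (y axis, linear, a separate scale for each gene) in WT PC, KO PC, WT VM and KO VM, with 1 point for each library, the marker showing its replicate number, and the mean with its SD (n = 3, cut at 0). *Ephb1* lies between 41.0 and 110 in WT PC and at 2.22 or below in all VM libraries, and *Epha4* overlaps between PC and VM.

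The same question in KO hearts used other libraries. Here 4 of the 9 members tested had an unadjusted p under 0.05, all higher in PC, namely *Ephb1*, *Efnb2*, *Efnb1* and *Ephb4*, where 9.70% of all 10779 genes tested did so. *Ephb1* and *Efnb1* passed the limit for testing only through KO PC, with means of 23.3 and 11.1 there. In KO VM their means were 0.899 and 2.18, levels at which a gene lower in PC would not have been tested. No member passed the adjustment in edgeR's test, which 0.872% of all genes did, and DESeq2's Wald test gave *Ephb1* an adjusted p of 0.0418. The median log2 fold change of the members was 0.94, and that of all genes 0.01.

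*Ephb1* was at 1.76, 11.4 and 56.8 in KO PC 1, 2 and 3, from 1, 9 and 85 raw counts, and at 1.41, 1.28 and 0 in KO VM, from 1, 1 and 0. All KO PC libraries lay above all KO VM libraries, although KO PC 1 was itself at the floor and KO PC 3 held most of the counts. The pooled ratio was 39.1 (95% counting interval 10.5 to 327). It was 8.63 (1.84 to 81.0) without KO PC replicate 3, from 10 counts in PC and 2 in VM, and 24.7 without KO VM replicate 3, both ratios being added after the data were seen. The log2 fold change was 4.65 (SE 1.15, adjusted p = 0.0795, edgeR quasi-likelihood test, Benjamini-Hochberg, 2.78e-05 to 0.294 over the alternatives). Without KO PC replicate 3 the mean fell below the limit for testing, and with quality weights in limma voom the value was 3.90.

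The 3 other members at this threshold are genes known from vessels or from cell boundaries. *Efnb2*, which encodes the transmembrane ephrin-B2 of arteries, was at 70.3, 45.5 and 15.4 in KO PC and at 4.24, 11.6 and 18.5 in KO VM. The groups overlapped only through KO PC 3 and KO VM 3, and the log2 fold change was 1.84 (SE 0.597, unadjusted p = 0.00720, adjusted p = 0.213, edgeR quasi-likelihood test, Benjamini-Hochberg). Without KO PC replicate 1 it was 1.33 with an unadjusted p of 0.0543. *Efnb1*, which encodes ephrin-B1, a class B ephrin present on the lateral membrane of cardiomyocytes, was at 22.9, 5.05 and 5.35 in KO PC and at 2.83, 2.57 and 1.16 in KO VM. The groups did not overlap, every KO VM library was at or under the floor, and the log2 fold change of 2.20 (SE 0.953, unadjusted p = 0.0346) was not under the threshold without KO VM replicate 1 (2.39), 2 (2.35) or 3 (1.90). Without KO PC replicate 1, which held the highest value, the mean of *Efnb1* fell below the limit for testing. *Ephb4* was at 63.3, 25.3 and 12.7 in KO PC and at 15.6, 12.8 and 11.6 in KO VM, where KO PC 3 lay within the VM range. Its log2 fold change of 1.27 (SE 0.579, unadjusted p = 0.0438) was 0.47 without KO PC replicate 1 and missed the threshold also without KO VM replicate 1 (1.37), 2 (1.25) or 3 (1.18). *Ephb4* shares 33 of its 4640 exon bases with *Zan* on the opposite strand. *Ephb3* had a log2 fold change of 0.84 (SE 0.496, unadjusted p = 0.110) in KO hearts, and its KO PC values of 12.3, 30.3 and 39.4 overlapped the KO VM values of 14.1, 19.3 and 13.9. The member count was 2 rather than 4 without KO VM replicate 1 or 3, and also with quality weights, with edgeR's own filter on low counts and in a single fit of 12 libraries. All genes under the threshold numbered 1046, and fell to 784 without KO VM replicate 3 and to 673 in the single fit.

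Endothelial markers differed between PC and VM in the same direction as *Efnb2* and *Ephb4*. All 10 endothelial markers had counts, and their sum was 737 to 917 normalized counts in WT PC, 531 to 1714 in KO PC, 299 to 580 in WT VM and 73.5 to 345 in KO VM. KO PC 1, with the highest endothelial sum, also held the highest *Efnb2* (70.3) and *Efnb1* (22.9), and KO VM 1, with the lowest sum, held the lowest *Efnb2* of KO VM (4.24). WT PC 2 did not follow this order, with the lowest *Efnb2* of all 12 libraries (3.90) at an endothelial sum of 737, above that of every VM library. *Ephb4* was highest in WT PC 2 (83.9) rather than in KO PC 1 (63.3). KO VM 1 held the highest *Ephb4* (15.6) and the highest *Efnb1* (2.83) of KO VM. In WT hearts 3 of the 10 endothelial markers tested had an unadjusted p under 0.05, beside 6.36% of all genes, all higher in PC, with a median log2 fold change of 1.08. In KO hearts 8 of 9 did, beside 9.70% of all genes, again all higher in PC, with a median of 1.96. Fibroblast markers summed to 741 to 1676 in WT PC, 668 to 1069 in KO PC, 231 to 421 in WT VM and 72.1 to 344 in KO VM, with all 8 detected. Smooth muscle and pericyte markers summed to 1137 to 1410, 1004 to 2477, 486 to 978 and 253 to 692 in these groups, again with all 8 detected, and the 7 leukocyte markers to 251 to 607, 241 to 271, 48.8 to 135 and 9.90 to 73.2. Among the neuronal and Schwann cell markers, *Sox10*, *Th*, *Tubb3* and *Prph* had no count in any library, and the list summed to 2.82 to 45.7. The part of these other cells in the PC to VM differences was not tested for any member, *Ephb1* and *Efna5* included. In bulk libraries of sorted cells, fewer cells of a type and less RNA per cell cannot be told apart.

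**Figure D3:**
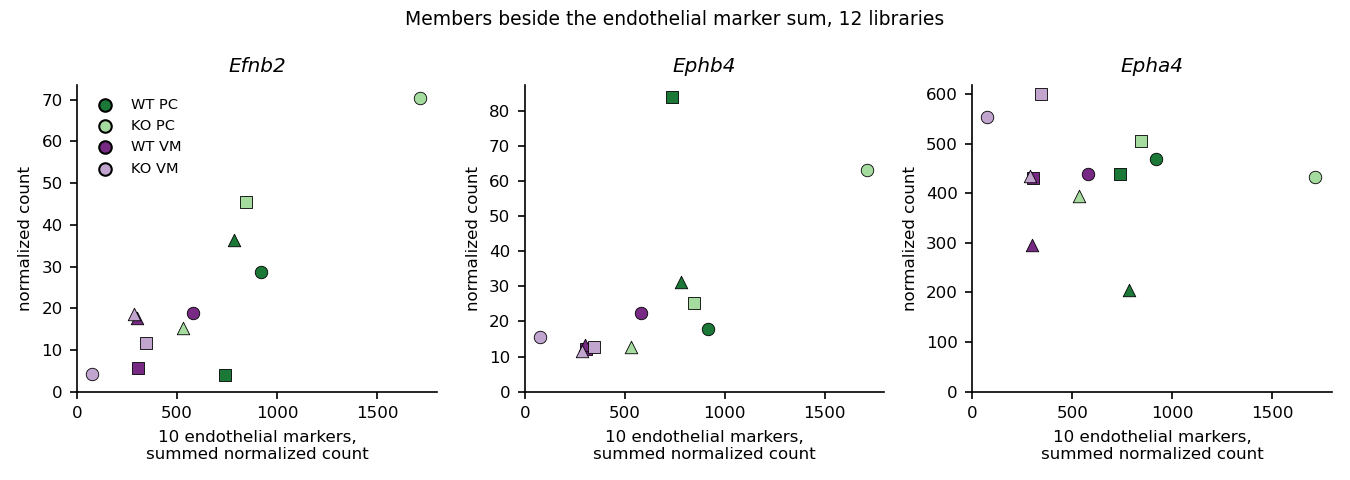
Normalized counts of *Efnb2*, *Ephb4* and *Epha4* (y axes, linear) against the summed normalized count of 10 endothelial markers (x axis, linear), 1 point for each of the 12 libraries, coloured by group and shaped by replicate number. The point at the right edge is KO PC 1, with a marker sum of 1714 and 70.3 normalized counts of *Efnb2*, and *Epha4* at 432 there lies within the range of the other libraries.

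Taking both genotypes in one fit of 12 libraries, 5 of the 9 members tested had an unadjusted p under 0.05, where 11.4% of all 11323 genes did, and 1 member, *Ephb1*, passed the adjustment, where 1.47% did. This fit shares its libraries with the pairs above, and *Ephb1* again passed the limit for testing only through PC. *Ephb1* had a log2 fold change of 5.08 (SE 0.722, adjusted p = 0.00220, edgeR quasi-likelihood test, Benjamini-Hochberg), with an adjusted p of at most 0.0150 in all 19 alternatives. Without KO PC replicate 3 it was 4.14. In an exact two-sided permutation test that relabelled libraries within genotype, *Ephb1* had p = 0.005, the smallest value the 400 relabellings allow. *Ephb3* was higher by 1.67 (SE 0.434, adjusted p = 0.0732 in edgeR quasi-likelihood test, Benjamini-Hochberg, 0.000368 to 0.210 over the alternatives), and its exact permutation p was 0.025. Without WT PC replicate 2 the *Ephb3* value was 1.19. *Ephb4* was higher by 1.34 (SE 0.462) and *Efnb2* by 1.33 (SE 0.522), with exact permutation p of 0.035 and 0.125. *Efna5*, a class A ephrin, was the member that was lower in PC, by -0.69 (SE 0.316, unadjusted p = 0.0446), with an exact permutation p of 0.015. *Ephb4* missed an unadjusted p of 0.05 without KO PC replicate 1 (0.94), and *Efnb2* without WT PC replicate 3 (1.12), KO PC replicate 1 (1.07), WT VM replicate 2 (1.14) or KO VM replicate 1 (1.11). *Efna5* missed it without KO PC replicate 2 (-0.67) or 3 (-0.67), WT VM replicate 2 (-0.60) or 3 (-0.71), or KO VM replicate 1 (-0.60) or 3 (-0.72). The member count was 3 without KO PC replicate 1, WT VM replicate 2 or KO VM replicate 1, and 7 without WT PC replicate 2. All genes under the threshold numbered 1286, and from 1008 to 1873 over the fits that left out 1 library.

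The study's second question was what loss of *Ncam-1* did to PCs. *Ncam1* itself had a log2 fold change of -6.13 between KO PC and WT PC (SE 0.827). Of the 9 members tested, 1 had an unadjusted p under 0.05, *Ephb3*, lower in KO PC, where 3.22% of all 11754 genes did. None passed the adjustment, as was the case for all genes (0%), in edgeR's test, while DESeq2's Wald test gave 7 genes over the whole table. The median log2 fold change of the members was 0.26, and that of all genes -0.00230.

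*Ephb3* had a mean of 98.8 ± 89.0 normalized counts (SD, n = 3) in WT PC and 27.3 ± 13.8 in KO PC. The ranges overlapped, since WT PC 1 at 28.8 lay below KO PC 2 and 3. The log2 fold change was -1.76 (SE 0.706, unadjusted p = 0.0318, adjusted p = 0.993, edgeR quasi-likelihood test, Benjamini-Hochberg). Without WT PC replicate 2 it was -0.77 with an unadjusted p of 0.153, and it missed the threshold also without KO PC replicate 1 (-1.43) or 2 (-1.83) and, at -0.88, with quality weights.

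*Ephb1* had a mean of 80.2 ± 35.4 (SD, n = 3) in WT PC and 23.3 ± 29.4 in KO PC, where KO PC 3 at 56.8 lay within the WT range and the other two below it. The log2 fold change was -1.66 (SE 0.849, unadjusted p = 0.0785). It was under the threshold in 7 of the 14 alternatives, among them DESeq2's Wald test (-1.76, unadjusted p = 0.0402) and the fits without KO PC replicate 3 (-3.53) or WT PC replicate 2 (-1.51). No alternative gave an adjusted p under 0.05, the lowest being 0.273.

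*Cntn2*, the PC marker gene, moved with *Ephb1* across these libraries. Its normalized count was 237, 451 and 533 in WT PC 1, 2 and 3 and 38.67, 49.2 and 452 in KO PC 1, 2 and 3, so KO PC 3 was within the WT range for both genes. *Ephb1* made up 14.8%, 16.6% and 17.1% of the counts on the pair of genes in WT PC 1, 2 and 3. The share in KO PC 1 was 4.35%, with a 95% Clopper-Pearson interval of 0.110% to 21.9%, and in KO PC 2 it was 18.8% (8.95% to 32.6%), both wide because few counts fell on either gene. In KO PC 3, with 85 and 677 counts, it was 11.2% (9.01% to 13.6%), which overlaps the interval of WT PC 1 (12.1% to 17.8%) and lies below that of WT PC 3 (14.9% to 19.4%). The study reported lower *Cntn2* in PCs of KO mice by qPCR, a difference that was not significant in its RNA-seq. *Cntn2* therefore cannot be taken as a measure of PC content that genotype leaves unchanged. The part of PC content in the *Ephb1* difference between genotypes was not tested.

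**Figure D4:**
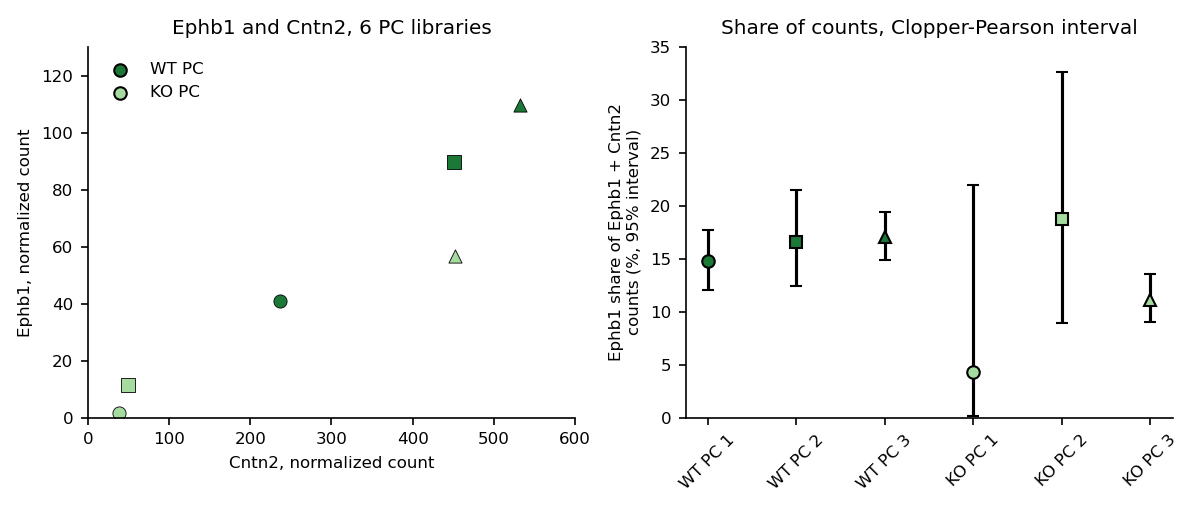
Left, normalized count of *Ephb1* (y axis) against that of *Cntn2* (x axis) in the 6 PC libraries, both linear. Right, *Ephb1* as a percent of the raw counts on both genes in each library with its 95% Clopper-Pearson interval, from 4.35% in KO PC 1 to 18.8% in KO PC 2.

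The remaining members did not reach the threshold between KO PC and WT PC. Estimates were lower in KO for *Ephb1*, *Ephb3* and *Ephb4*, and higher for the other members tested. Those of *Ephb4*, *Epha4*, *Epha7* and *Efnb1* changed sign when 1 library was left out. *Efna1* had a log2 fold change of 1.28 (SE 0.852) and *Efnb1* 0.96 (SE 1.21). *Efnb2* had 0.81 (SE 0.769) and *Efna5* 0.67 (SE 0.601), where WT PC 2 at 3.90 and 7.80 was the lowest library of its group for both. Without WT PC replicate 2 the *Efna5* value was 0.25. *Epha4* had 0.26 (SE 0.322, approximate 95% interval -0.37 to 0.89), *Epha7* 0.13 (SE 0.522) and *Ephb4* -0.38 (SE 0.737). Without WT PC replicate 2, *Efna1* was at 2.11 with an unadjusted p of 0.0166.

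In VM the loss of *Ncam-1* came with small differences. *Ephb1*, *Efnb1* and *Epha3* were below the limit for testing, and of the 7 members tested 1 had an unadjusted p under 0.05, *Epha4*, where 5.12% of all 10737 genes did. It did not pass the adjustment, which 0.0373% of all genes did. *Epha4* was at 554, 600 and 435 in KO VM and at 440, 430 and 295 in WT VM, a log2 fold change of 0.45 (SE 0.174, unadjusted p = 0.0206, adjusted p = 0.931, edgeR quasi-likelihood test, Benjamini-Hochberg). KO VM 3 lay within the WT range, and the exact two-sided permutation p was 0.2, where 0.1 is the smallest that 20 relabellings allow. The threshold was missed without WT VM replicate 3 (0.29), without KO VM replicate 2 (0.37) and in the single fit of 12 libraries (0.45). *Efnb3*, a class B ephrin outside the set, was higher in KO VM by 0.63 (SE 0.246, unadjusted p = 0.0203), and not under the threshold without WT VM replicate 1 (0.42) or KO VM replicate 1 (0.49) or 3 (0.56). *Epha7* had 0.50 (SE 0.281), *Efna5* 0.34 (SE 0.263), *Ephb3* -0.10 (SE 0.425), *Ephb4* -0.27 (SE 0.460), *Efna1* -0.32 (SE 0.591) and *Efnb2* -0.28 (SE 0.576), all with unadjusted p above 0.05.

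**Figure D5:**
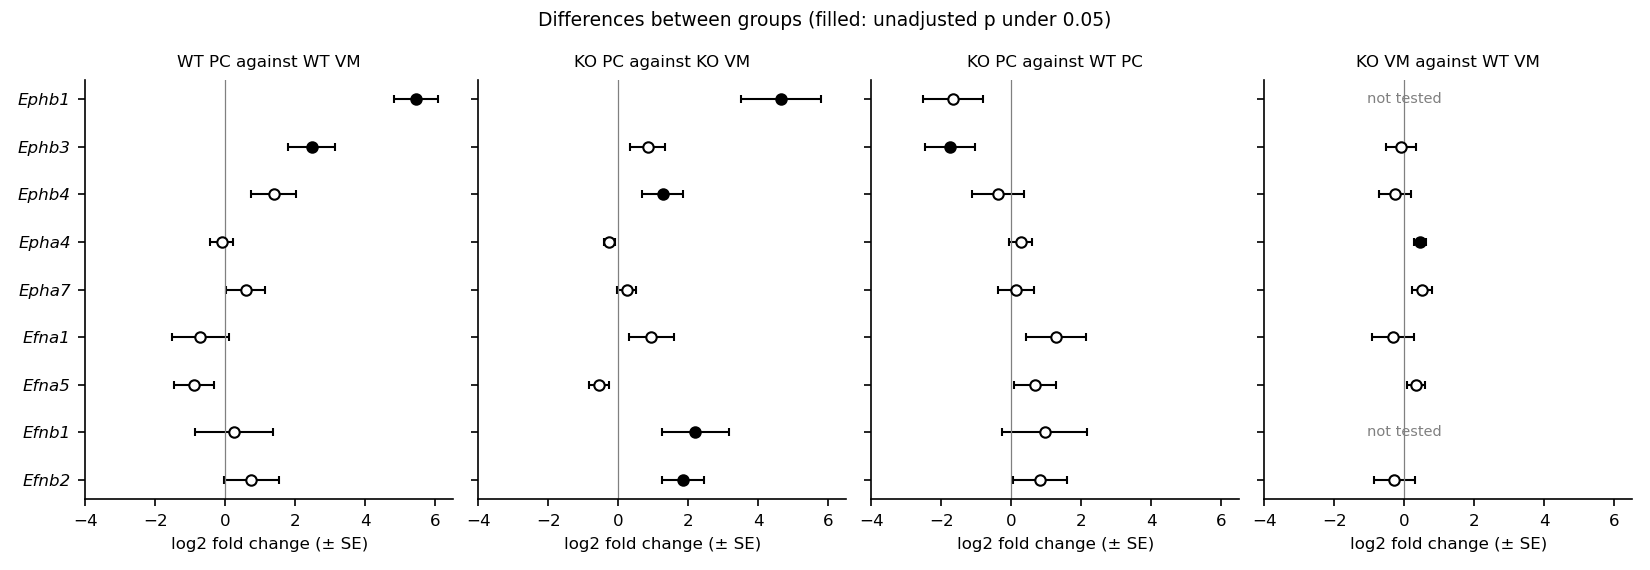
Log2 fold change with its standard error (x axis) of the 9 members other than *Epha3* for PC over VM in WT, PC over VM in KO, KO over WT in PC and KO over WT in VM, from edgeR's quasi-likelihood fit. In the panel for KO over WT in VM, *Ephb1* and *Efnb1* are marked as not tested. Filled points have an unadjusted p under 0.05, and *Ephb1* stands furthest to the right in both PC to VM panels, at 5.44 and 4.65. The panels share libraries in pairs.

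Whether the genotype difference itself differed between PC and VM was tested as an interaction over the 12 libraries. No member had an unadjusted p under 0.05 in edgeR's test, where 2.90% of all 11323 genes did, and neither any member nor any other gene passed the adjustment (0%). DESeq2's Wald test gave 0 members as well. *Ephb3* came closest, with a difference of -1.67 on the log2 scale (SE 0.865, unadjusted p = 0.0725), and *Efna1* had 1.66 (SE 1.06). For *Ephb1* the difference was -0.75 with an SE of 2.10, an approximate 95% interval of -4.87 to 3.36, so a difference of many fold could not have been detected with VM at the floor. The effects of the genotype on *Ephb3* in PC and on *Epha4* in VM were therefore not shown to differ between the cell types.

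Proteins that carry Eph and ephrin signals into the cell, a list of 32 genes, reached the threshold about as often as all genes. Of these, 27 were tested between WT PC and WT VM, and 2 had an unadjusted p under 0.05, *Arhgef15* and *Yes1*, both higher in PC, beside 6.36% of all genes. In KO hearts 2 of 27 did, *Arhgef15* and *Cdc42*, beside 9.70%, and over both genotypes 4 of 27, *Arhgef15*, *Vav3*, *Nck2* and *Yes1*, beside 11.4%, again all higher in PC. The median log2 fold change of the list was 0.10, 0.04 and 0.09 in these fits, and that of all genes -0.00357, 0.01 and 0.02. *Arhgef15*, which encodes an exchange factor for RhoA that acts with EphB and EphA receptors and is known from endothelial cells, was at 48.8, 138 and 35.2 in WT PC, 93.2, 26.5 and 29.4 in KO PC, 13.1, 11.3 and 10.4 in WT VM and 2.83, 16.7 and 5.79 in KO VM. All PC libraries lay above all VM libraries, and over both genotypes the log2 fold change was 2.56 (SE 0.486, adjusted p = 0.0148, edgeR quasi-likelihood test, Benjamini-Hochberg, 1.42e-08 to 0.0592 over the alternatives). Without WT PC replicate 2 this log2 fold change was 2.17. The highest *Arhgef15* values came from WT PC 2 and KO PC 1, the latter being the library with the highest endothelial sum, and the part of endothelial cells was not tested. In the same fit *Vav3*, an exchange factor of Rac recruited by Eph receptors, was higher by 1.71 (SE 0.745, unadjusted p = 0.0355). That value ran from 1.41 without KO VM replicate 1 to 2.62 without KO VM replicate 2, and it kept an unadjusted p under 0.05 in 5 of the 12 fits that left out 1 library, missing it without WT PC replicate 1 or 3, KO PC replicate 1, WT VM replicate 1 or 3, or KO VM replicate 1 or 3. The *Vav3* means were 3.94 in WT VM and 4.62 in KO VM, so it too passed the limit for testing only through PC. *Nck2*, an adaptor protein, was higher by 1.30 (SE 0.592, unadjusted p = 0.0434), which was 0.34 without WT PC replicate 2, and was under the threshold in 4 of these 12 fits, those without WT PC replicate 1 or 3, KO PC replicate 2 or KO VM replicate 2. *Cdc42*, a small GTPase that acts on actin, was higher in KO PC than in KO VM by 0.42 (SE 0.153, unadjusted p = 0.0143), and missed the threshold without KO PC replicate 3 (0.37) or KO VM replicate 1 (0.30).

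Between KO PC and WT PC 1 of the 27 effectors tested had an unadjusted p under 0.05, beside 3.22% of all genes, a share near the background. It was *Yes1*, a kinase of the Src family, which was at 189, 300 and 161 in WT PC and at 120, 111 and 114 in KO PC, so that all KO PC libraries lay below all WT PC libraries. The log2 fold change was -0.90 (SE 0.310, unadjusted p = 0.0152, adjusted p = 0.993, edgeR quasi-likelihood test, Benjamini-Hochberg), and -0.62 without WT PC replicate 2. Without KO PC replicate 2 it was -0.89 with an unadjusted p of 0.0507. Between WT PC and WT VM it was higher by 0.75 (SE 0.289, unadjusted p = 0.0287), by 0.47 without WT PC replicate 2, and above the threshold of 0.05 without WT VM replicate 1 (0.81), 2 (0.69) or 3 (0.78). Over both genotypes it was higher by 0.43 (unadjusted p = 0.0281) and under the threshold in 7 of the 12 fits that left out 1 library, missing it without WT PC replicate 2, KO PC replicate 3, WT VM replicate 2 or KO VM replicate 1 or 2. No effector had an unadjusted p under 0.05 in edgeR's test between KO VM and WT VM, where 26 were tested, or in the interaction.

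The genes whose levels ran most closely with 3 of the members were ranked by Pearson correlation of log2(normalized count + 2) over the 12 libraries, which share the split into PC and VM and the depth of each library. For *Ephb1* they were *Stard10* (0.983), *Drd2* (0.973), *Dpysl3* (0.972), *Map1a* (0.970) and *Slit2* (0.960) out of 8099 candidates, and *Cntn2* ranked sixth at 0.948. For *Ephb3* they were *Pcp4* (0.967), *Slc16a7* (0.958), *Peak1* (0.940), *Galnt18* (0.934) and *Eif4ebp1* (0.930), with *Cntn2* at 0.786 and rank 228. For *Efnb2* they were *Steap4* (0.942), *Thbd* (0.925), *Akap12* (0.915), *Dock9* (0.911) and *Calcrl* (0.907), with *Cntn2* at 0.230 and rank 2845. These are descriptions over libraries and carry no test. *Pcp4* had counts in only 5 of the 12 libraries, and *Ephb3* was by far highest in WT PC 2, at 199. The 3 lists share no gene, and *Slit2* is itself a guidance ligand of axons.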

How the data were processed

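RNA of PCs and VMs was sequenced in 12 libraries, 3 for each genotype and cell type. The authors deposited raw counts of read pairs per gene, made per the labels with STAR 2.5.0c on mm10 and HTSeq 0.6.0. Rows that name no gene were kept out of library sizes and tests and held 39.98% to 73.6% of the pairs. Counts were analysed with edgeR 4.0.16 in R 4.3.3, using TMM and the quasi-likelihood test on genes with a mean normalized count above 5, adjusting p-values by Benjamini-Hochberg over the whole table, with a threshold of 0.05. Pairwise tests took the 6 libraries compared, and the test over both genotypes and the interaction took all 12. Exact two-sided permutation tests used log2(normalized count + 2). Positions, exon lengths and overlaps came from GENCODE M21 (GRCm38), which lacks 468 of the identifiers with 0.00659% of counts. Counts outside mitochondrial genes, 1532393 to 6761356 per library, limit what can be seen of weak genes.

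Groups followed the titles. Named were the 10 members, other family and effector genes at an unadjusted p under 0.05, the 5 genes most like *Ephb1*, *Ephb3* and *Efnb2*, and marker lists as sums. The members, lists and naming rule were chosen with earlier results of these data known. Titles give groups the same numbers, but the source names number WT libraries differently, so no pairing was assumed. No library repeated another (smallest chi-square per degree of freedom 7.03). Alternatives were DESeq2 1.42.0, its size factors, filterByExpr, no filter, no mitochondrial genes, voom of limma 3.58.1 with quality weights, the replicate block, a single fit of 12 libraries and each library left out. The steps were tested on simulated data.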

Additional observations from a re-analysis of the deposited data

How the results depend on the processing

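Of the results on single genes that reached an unadjusted p under 0.05 in edgeR's test, none changed direction in any alternative. The number of members under that threshold was 2 in place of 4 between KO PC and KO VM with filterByExpr, with quality weights in limma voom, with the replicate block and in the single fit of 12 libraries. Between KO PC and WT PC it was 2 in place of 1 with DESeq2's Wald test, without a filter, with the replicate block and in the single fit, and 3 with quality weights. Between KO VM and WT VM it was 0 in place of 1 in the single fit, and for the interaction it was 1 in place of 0 without a filter and with quality weights. When each library was left out in turn, the number ran from 2 to 5 for WT PC against WT VM, 2 to 4 for KO PC against KO VM, 3 to 7 over both genotypes, 0 to 2 for KO PC against WT PC, 0 to 1 for KO VM against WT VM and 0 to 1 for the interaction. The count of all genes ran from 316 to 1264, 784 to 1172, 1008 to 1873, 169 to 879, 437 to 712 and 197 to 841 in the same order. Where 1 group was left with 2 libraries, the fit pooled the spread.

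The log2 fold changes that changed sign all belonged to members above the threshold. With quality weights *Efna1* was -0.31 over both genotypes, *Epha7* -0.087 between KO PC and WT PC, and *Efnb2* 0.10 between KO VM and WT VM, and in the interaction *Ephb4* was 0.15 and *Epha4* 0.29. Leaving out 1 library gave -0.31 to 0.20 for *Epha4* and -0.24 to 0.90 for *Epha7* in WT PC against WT VM, and -0.28 to 0.40 for *Efna1* over both genotypes. Between KO PC and WT PC it gave -1.17 to 0.37 for *Ephb4*, -0.029 to 0.46 for *Epha4*, -0.19 to 0.96 for *Epha7* and -0.024 to 2.78 for *Efnb1*. Between KO VM and WT VM it gave -0.25 to 0.030 for *Ephb3*, -0.40 to 0.034 for *Ephb4*, -0.86 to 0.088 for *Efna1* and -0.81 to 0.084 for *Efnb2*. In the interaction it gave -0.92 to 0.65 for *Ephb4*, -0.48 to 0.047 for *Epha4*, -0.68 to 0.43 for *Epha7* and -0.092 to 0.61 for *Efna5*. The cause of these changes was not tested.

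Over all genes, those with an adjusted p under 0.05 numbered 13 between WT PC and WT VM, 4 with the replicate block and 297 without a filter, and 1 to 108 when 1 library was left out. Between KO PC and KO VM they numbered 94 (8 in the single fit to 326 without a filter), over both genotypes 166 (90 with the block to 561 without a filter), between KO PC and WT PC 0 (0 to 132, the latter without a filter, beside 378 at an unadjusted p under 0.05), between KO VM and WT VM 4 (1 to 47) and in the interaction 0 (0 to 19, beside 328 at an unadjusted p under 0.05). Libraries of the same number correlated at 0.207, 0.0813 and 0.150 between WT PC and WT VM, where each library correlated best with its own number, a hint from the data and not from the design, at -0.00956, 0.121 and 0.0185 between KO PC and KO VM, at -0.00731, 0.0399 and 0.0991 between KO PC and WT PC and at -0.0750, -0.0354 and 0.0552 between KO VM and WT VM. With the replicate block *Ephb1* had an adjusted p of 0.0705 in edgeR between WT PC and WT VM, and a log2 fold change of -2.38 (unadjusted p = 0.00692) between KO PC and WT PC, while *Efnb1* was -0.37 between WT PC and WT VM. In that fit *Ephb4* and *Efnb1* in KO PC against KO VM, *Efna5*, *Vav3* and *Nck2* over both genotypes and *Yes1* in WT PC against WT VM had an unadjusted p above 0.05, and no other member or effector named lost or gained that threshold. Between KO PC and KO VM, *Ephb1* could not be fitted without KO PC replicate 3, nor *Efnb1* without KO PC replicate 1, because the mean fell under the limit. Few counts limit what can be said of *Ephb1* and *Efnb1* in VM and of *Epha3* in every group. Whether depth or low expression accounts for these few counts was not tested.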
